A study of Mus musculus with 2 samples.

Results

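The capillary pericytes of the postnatal day 10 mouse brain described here were 560 of the 20741 single-cell barcodes that passed the quality limits, which were at least 500 detected genes, at least 1500 UMIs (unique molecular identifiers, each standing for 1 captured RNA molecule) and at most 10% mitochondrial UMIs. A barcode was counted as a pericyte when Kcnj8, Abcc9, Higd1b and Atp13a5 together gave at least 3 UMIs, Acta2, Tagln and Myh11 together at most 5, and Cldn5 and Flt1 together at most 2. Library 1 held 497 of them among 11486 barcodes, a share of 4.33% (exact Clopper-Pearson 95% interval 3.96 to 4.72), and library 2 held 63 among 9255, a share of 0.681% (0.523 to 0.870). These intervals cover counting error only. The share was higher in library 1, and no comparison rests on it because both libraries belong to 1 group.

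Pericytes are the mural cells of capillaries. They sit inside the basement membrane that they share with the endothelial tube, are recruited by endothelial platelet-derived growth factor B through the receptor encoded by Pdgfrb, and take part in forming the blood-brain barrier and in setting capillary tone. Brain pericytes carry an ATP-sensitive potassium channel built from the subunits encoded by Kcnj8 and Abcc9, whereas arteriolar smooth muscle cells, the other mural cells, are defined by the contractile proteins encoded by Acta2, Tagln and Myh11.

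The study profiled freshly isolated whole brain cells of C57BL/J mice at postnatal day 10 with 10x Chromium droplets, a method that counts the 3' ends of transcripts. Both libraries form 1 group with no treatment, genotype or sex given, so the comparisons below are between cell classes and the 2 libraries are the replicates. The series names 6 mice without assigning them to libraries. Members with Xist but no Y-linked UMI and members with the reverse occurred in both libraries (244 and 100 in library 1, 27 and 14 in library 2), so animals of both sexes contributed to each.

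The label was set beside markers that the rule did not use, listed with earlier results of these data known. Rgs5, a regulator of G protein signalling that marks pericytes and smooth muscle cells, was found in 495 of 497 members of library 1 and 62 of 63 of library 2, as was Vtn, the matrix glycoprotein vitronectin. Barcodes other than members were counted within the rule's smooth muscle and endothelial limits. Among such barcodes with no UMI of the 4 pericyte genes, 274 of 10571 and 122 of 8959 held an Rgs5 UMI. Smooth muscle cells, drawn as given below, lie outside those limits, and 84.6% and 88.9% of them held Rgs5. The median sum of the 4 pericyte genes was 29 UMIs in library 1 and 31 in library 2, with 450 and 59 members above 10. Just inside the threshold, at 3 UMIs, stood 9 and 1 members, of which 7 and 0 held Rgs5; just outside it, at 2 UMIs, stood 18 and 9 barcodes, of which 15 and 7 held Rgs5. The median depth of a member was 3987 UMIs over 1785 genes in library 1 and 3576 over 1633 in library 2.

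Some members also carried markers of other cells, and the 2 libraries differed in which. In library 1, 58 members passed the marker threshold of another class as well (37 neuroblast, 19 oligodendrocyte precursor, 7 astrocyte and 1 fibroblast, with overlaps), at a median of 7777.5 UMIs; in library 2 these were 5 (4 microglia and 1 neuroblast), at 6055. Levels are given as CPM, a gene's UMIs per 1000000 UMIs summed over a class in a library. The summed level of 8 microglial markers in the pericytes was 27.2 CPM in library 1, with 4 of the 8 at 0, and 572 in library 2, with none at 0. Of 6 erythroid markers the sums were 1.73 and 1680 CPM, with 3 and 1 at 0. Oligodendrocyte precursor markers ran the other way, at 228 CPM with none of 7 at 0 and 4 CPM with 6 of 7 at 0, and neuroblast markers summed to 266 and 140. Smooth muscle markers summed to 211 and 184 CPM in pericytes (2 and 4 of 9 at 0), against 26867 and 23302 in the smooth muscle class. Endothelial markers summed to 278 and 320 (1 and 3 of 10 at 0), against 10116 and 10944 in the endothelial class. The smooth muscle list holds Acta2, Tagln and Myh11, and the endothelial list Cldn5 and Flt1. The rule limits these genes in pericytes and they define those classes, so both contrasts were set in advance. In smooth muscle library 1, Acta2 and Tagln alone stood at 14912 and 9782 CPM. Doublets were kept. Scrublet's automatic threshold called 64 members of library 1, 39 of them among the 58 that passed another class's threshold. In library 2 the highest-scoring 6% of barcodes were taken instead, and these held 5 members, 2 of them among the 5, so the counts of the libraries cannot be compared. Of the 90 barcode sequences present in both libraries, 7 were pericytes in library 1 and 2 in library 2.

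Despite these differences the summed pericyte profiles of the 2 libraries were close. Of 1752 genes at 100 CPM or more in either library, 1710 lay within 2-fold, 21 were higher in each, and across these genes Pearson's r of log2(CPM + 1) was 0.900. The genes higher in library 2 included the haemoglobin gene Hbb-bs (0 against 916 CPM) and the complement gene C1qa (0 against 132). Those higher in library 1 included the glial lipid carrier Fabp7 (564 against 140 CPM) and the mitotic topoisomerase Top2a (174 against 64.0).

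The classes compared were drawn by marker sums. Smooth muscle cells held at least 6 UMIs of Acta2, Tagln and Myh11, and endothelial cells at least 6 of Cldn5 and Flt1. Fibroblasts held at least 5 of Col1a1, Dcn and Lum, and each class at most 2 UMIs of the 4 pericyte genes. Barcodes of the compared classes passed no other class's threshold, whereas the 58 and 5 pericytes that did were kept. UMIs were summed per class and library and tested with the edgeR quasi-likelihood F test with library as a block. A gene was called when its Benjamini-Hochberg adjusted p was under 0.05, the fitted change at least 2-fold and its direction the same in both libraries, a library without a UMI of the gene in either class giving no direction. Of 12508 genes tested, with the 27 genes that define the classes left out, 225 (1.8%) were called higher in pericytes than in smooth muscle cells and 265 (2.12%) lower. Against endothelial cells the counts were 1322 (10.6%) and 1262 (10.1%), and against fibroblasts 343 (2.74%) and 237 (1.89%). The comparison classes were small: smooth muscle cells numbered 39 and 9 barcodes in libraries 1 and 2 (196893 and 34675 UMIs), endothelial cells 96 and 118, and fibroblasts 19 and 5 (104585 and 28593 UMIs). Leaving out smooth muscle library 1 left 59 genes higher and 45 lower, and leaving out fibroblast library 1 left 134 and 70. With DESeq2, 31.9% of the smooth muscle calls were higher in pericytes rather than 45.9%, and 32.8% of the fibroblast calls rather than 59.1%. The median fitted log2 change of all genes, 0.22 and 0.47 in edgeR, was 0.01 and 0.00 with DESeq2. The library block removes the shift that all classes of a library share. The p-values therefore rest on how class differences varied between the 2 libraries, pooled over all classes fitted and with information drawn from other genes. Nothing in the labels says that the libraries came from separate animals, so that spread may be technical. Since genes travel with the genes that define a class, the p-values describe the classes as drawn. Pairs of levels below are library 1 and library 2, and folds are ratios of the mean CPM of the 2 libraries, whose median over all genes was 0.04 on the log2 scale against smooth muscle, 0.26 against endothelial cells and −0.24 against fibroblasts.

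**Figure D1:**
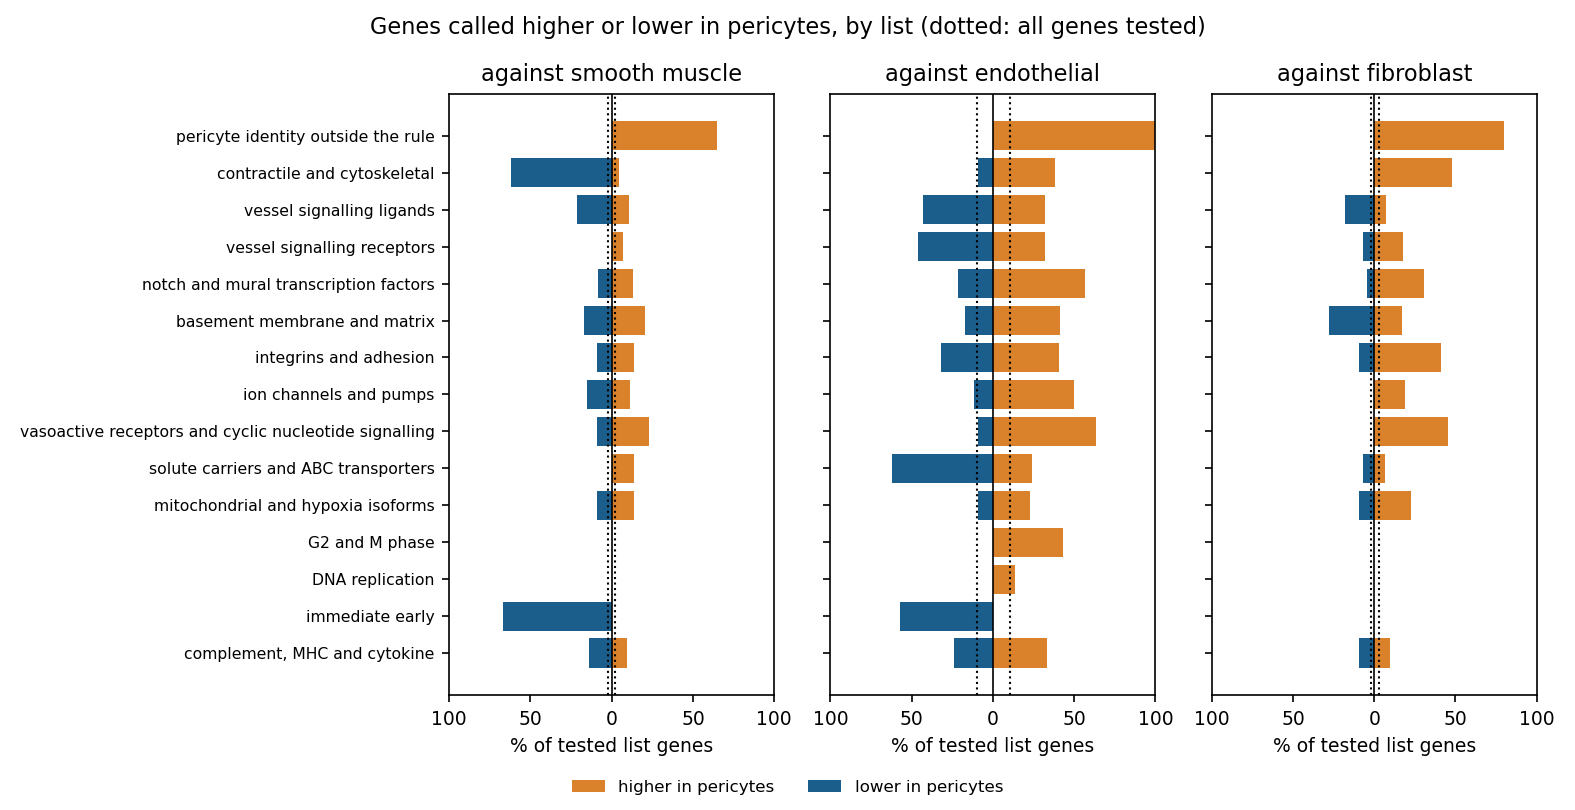
Share of the tested genes of each of 15 gene lists called higher (orange, to the right) or lower (blue, to the left) in pericytes than in smooth muscle cells, endothelial cells and fibroblasts, in percent. Dotted lines mark the share over all 12508 genes tested (1.8% and 2.12%, 10.6% and 10.1%, 2.74% and 1.89%); the identity list stands at 13 of 20, 20 of 20 and 16 of 20 higher.

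Genes higher in pericytes than in all 7 other classes (smooth muscle, endothelial, fibroblast, microglia, astrocyte, oligodendrocyte precursor and neuroblast) numbered 62, or 0.496% of those tested; 1 gene, Ndufa4, was lower than in all 7 (0.00799%). The 62 included signalling receptors (Pdgfrb, S1pr3, Ednra, Tbxa2r, F2r), basement membrane proteins (Nid1, Lamb1), the mitochondrial isoforms Ndufa4l2 and Cox4i2, the calcium-permeable channel Trpc4, the interferon-induced membrane proteins Ifitm1 and Ifitm3, and the gap junction protein gene Gjc1. The class next in level was smooth muscle for 33 of them, fibroblasts for 7, microglia for 7 and endothelial cells for 6. Eva1b, a membrane protein gene, was among the least variable, at 972 and 964 CPM in pericytes against 168 and 317 in smooth muscle cells (3.99-fold, edgeR adjusted p = 1.5e-06). Nts, the precursor gene of the vasoactive peptide neurotensin, stood at 120 and 232 CPM against 20.3 and 0 (fitted log2 change 3.07 ± 0.62, SE; adjusted p = 0.0012).

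**Figure D2:**
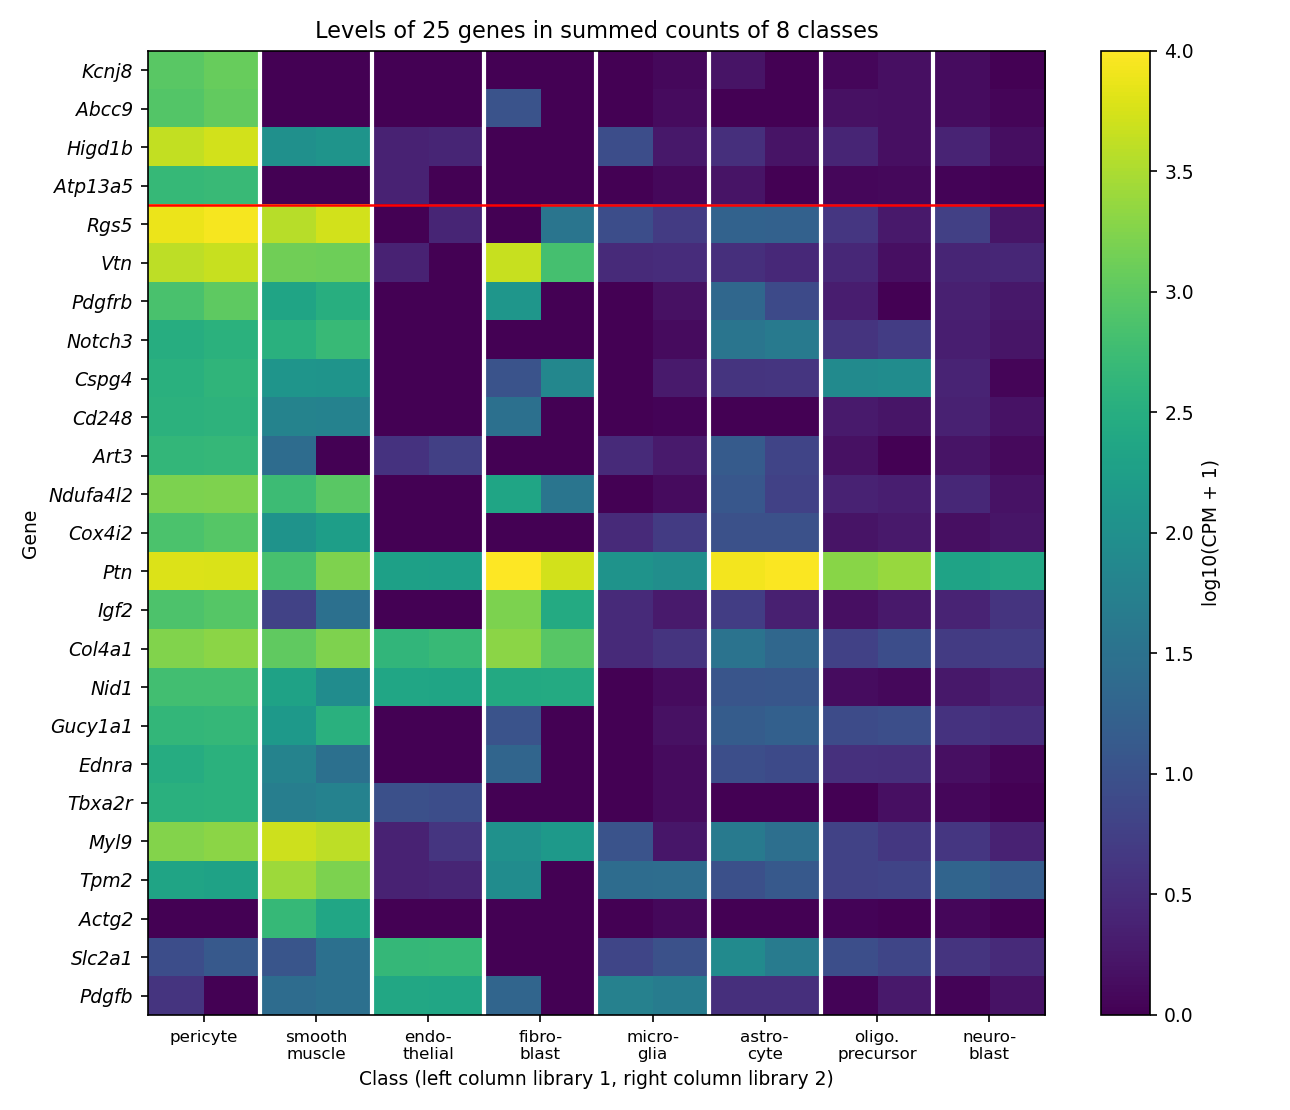
Levels of 25 genes (rows) in the summed UMIs of 8 classes, left column library 1 and right column library 2 of each class, as log10(CPM + 1) with the colour scale ending at 4. The 4 genes above the red line chose the pericytes; Rgs5 and the rows below it did not, and Kcnj8, Abcc9, Higd1b, Pdgfrb, Cd248, Ndufa4l2 and Cox4i2 are brightest in the 2 pericyte columns.

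The levels of the genes that the rule used are a description. Kcnj8, the pore subunit of the channel, stood at 933 CPM in library 1 and 1180 in library 2, and Abcc9, its sulfonylurea receptor subunit, at 845 and 1100. Higd1b, a mitochondrial inner membrane protein gene, stood at 4254 and 5232 CPM. Acta2, smooth muscle actin, was limited by the rule and stood at 32.4 and 8 CPM, with a UMI in 39 of 497 and 2 of 63 members.

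The 1 gene lower in pericytes than in every other class belongs to a pair of paralogues. Ndufa4 (chr6:11900292-11907497, minus strand, GENCODE coordinates on GRCm38) encodes a subunit of cytochrome c oxidase. Ndufa4l2 (chr10:127514967-127517154, plus strand) encodes a related protein known as a target of hypoxia-inducible factors. Ndufa4l2 stood at 1616 CPM in library 1 and 1664 in library 2, a mean of 1640 ± 33.6 (SD, n = 2 libraries). Smooth muscle cells reached 554 and 952 CPM, fibroblasts 220 and 35.0, and endothelial cells 0 in both libraries. The pericyte values lay above those of every other class without overlap, 2.18-fold above smooth muscle (edgeR adjusted p = 0.0023), 12.9-fold above fibroblasts (5.5e-08) and at least 727-fold above endothelial cells (2.9e-16), a bound set by 3 UMIs over both libraries.

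Ndufa4 showed the reverse order. It stood at 347 and 256 CPM in pericytes, a mean of 301 ± 64.1 (SD, n = 2). The other 7 classes lay between 663 CPM, in smooth muscle library 2, and 1822 CPM, in oligodendrocyte precursor library 2, so pericytes were the lowest class in both libraries with no overlap. The deficit was 3.19-fold against smooth muscle cells (1260 and 663 CPM; edgeR adjusted p = 0.00035), 4.12-fold against endothelial cells (1279 and 1206; 2.1e-07) and 3.88-fold against fibroblasts (1186 and 1154; 0.00059). Microglia, the next lowest class by mean, held 721 and 698 CPM (adjusted p = 4e-05). After each barcode was thinned to 1500 UMIs, an Ndufa4 UMI was found in 24.7% of pericyte barcodes in library 1 and 27.0% in library 2 (39.4% and 39.7% before thinning, at median depths of 3987 and 3576 UMIs), against 83.3% and 78.0% of endothelial and 59.4% and 60.2% of microglial barcodes. In the 439 and 58 pericytes that passed no other class's threshold, Ndufa4 was lower still, at 215 and 196 CPM, and was found in 16.6% and 24.1%. The call against smooth muscle cells did not pass without pericyte library 2 (log2 change −1.28, adjusted p = 0.0595) or without smooth muscle library 1 (−0.47, 0.813), and that against fibroblasts did not pass without fibroblast library 1 (−1.22, 0.226). Ndufa4l2 against smooth muscle cells did not pass without smooth muscle library 1 (1.15, 0.245) or in DESeq2 (0.290).

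As a share of the 2 paralogues' UMIs, a ratio that needs no scaling between classes, Ndufa4l2 made up 82.3% in pericyte library 1 (exact 95% interval 81.2 to 83.4) and 86.7% in library 2 (83.3 to 89.6). It made up 30.5% and 58.9% in smooth muscle cells, 15.6% and 2.94% in fibroblasts, and none of 889 and 766 UMIs in endothelial cells. A second isoform pair of the same complex moved in part. Cox4i2, the subunit IV isoform tied to low oxygen and lung, stood at 731 and 872 CPM in pericytes, 5.63-fold above smooth muscle cells (112 and 173; edgeR adjusted p = 6.6e-08), with no UMI in endothelial cells or fibroblasts. Its share of the Cox4i1 and Cox4i2 UMIs was 41.7% and 42.2%, against 10.6% and 17.1% in smooth muscle cells. The common isoform Cox4i1 was not called lower in pericytes: it stood at 1019 and 1196 CPM against 945 and 836 in smooth muscle cells (adjusted p = 0.60).

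**Figure D3:**
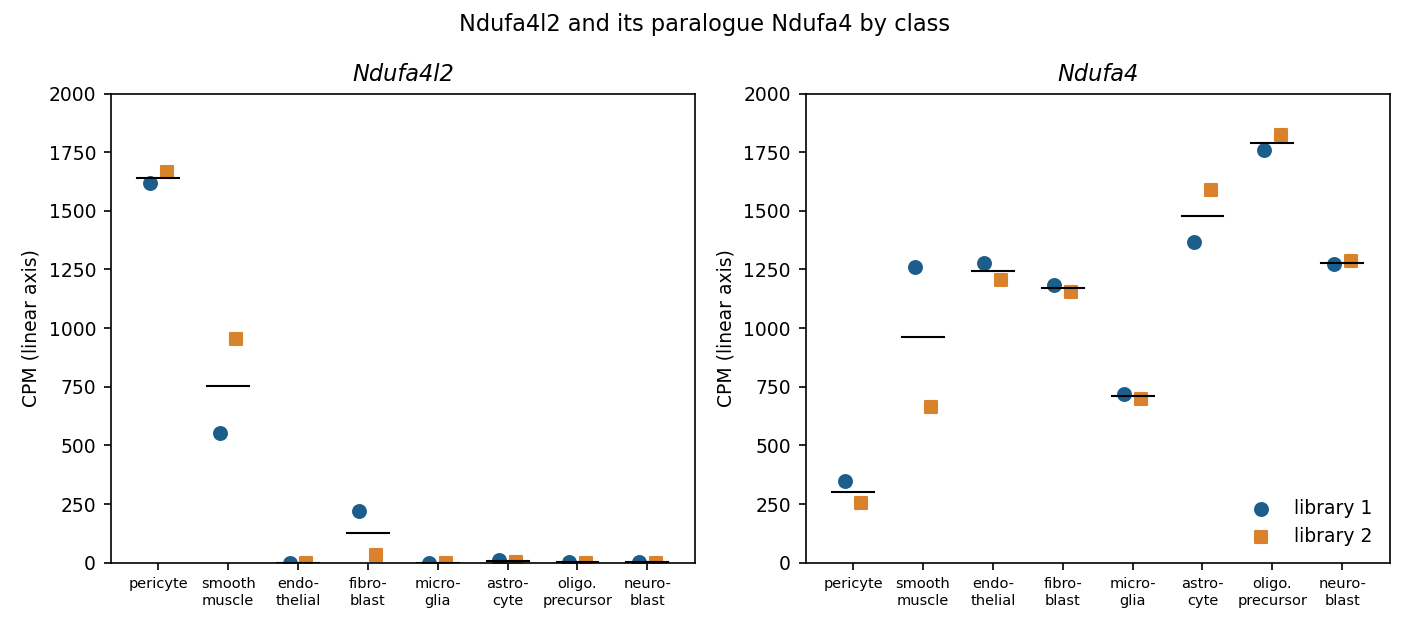
Levels of Ndufa4l2 (left) and Ndufa4 (right) in 8 classes in CPM on linear axes, circles library 1, squares library 2, bars their mean. Pericytes are the highest class for Ndufa4l2 (1616 and 1664) and the lowest for Ndufa4 (347 and 256).

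Among the 22 tested genes of a list of mitochondrial and hypoxia-related isoforms, 3 were higher and 2 lower in pericytes than in smooth muscle cells (all genes: 1.8% and 2.12%). For these isoforms the counts were 5 and 2 against endothelial cells (all genes: 10.6% and 10.1%), and 5 and 2 against fibroblasts (2.74% and 1.89%). Their median log2 ratio was 0.18, 0.25 and −0.07, near that of all genes. Epas1, the hypoxia-inducible factor 2 alpha subunit, was among those higher than in smooth muscle cells, at 376 and 540 against 198 and 57.7 CPM (3.58-fold, edgeR adjusted p = 0.0077). It did not pass without smooth muscle library 2 (adjusted p = 0.108) or in DESeq2 (0.0668), and did not differ detectably from endothelial cells (312 and 420 CPM, adjusted p = 0.93). Slc2a1, the glucose transporter that hypoxia-inducible factors also raise, stood at 7.77 and 12 CPM in pericytes and was 47.8-fold lower than in endothelial cells (463 and 482; adjusted p = 6.3e-16).

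Stretches before the start sites of genes from these comparisons are shown because the data turn on their levels: Ndufa4 as the gene lowest in pericytes, Rgs5 and Vtn as widely detected genes outside the rule, and Ifitm1, Lamb1 and Nid1 as genes above every other class. Each is the 250 bases before a RefSeq start (GRCm38.p6), on the gene's own strand, 5' to 3'; capitals mark the core TGGGAA, on either strand (TTCCCA), which the Notch effector RBPJ is known to bind.
Ndufa4, chr6:11907451-11907700, minus strand: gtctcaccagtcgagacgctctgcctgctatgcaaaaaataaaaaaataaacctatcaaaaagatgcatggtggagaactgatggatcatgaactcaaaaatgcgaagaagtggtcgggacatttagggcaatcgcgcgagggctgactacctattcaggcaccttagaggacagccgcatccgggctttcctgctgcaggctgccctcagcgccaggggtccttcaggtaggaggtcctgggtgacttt
Rgs5, chr1:169655251-169655500, plus strand: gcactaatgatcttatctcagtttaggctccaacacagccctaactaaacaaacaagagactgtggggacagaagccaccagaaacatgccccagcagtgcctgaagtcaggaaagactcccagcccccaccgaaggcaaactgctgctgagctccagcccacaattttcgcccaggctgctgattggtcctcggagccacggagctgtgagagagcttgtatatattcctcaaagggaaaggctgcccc
Vtn, chr11:78498870-78499119, plus strand: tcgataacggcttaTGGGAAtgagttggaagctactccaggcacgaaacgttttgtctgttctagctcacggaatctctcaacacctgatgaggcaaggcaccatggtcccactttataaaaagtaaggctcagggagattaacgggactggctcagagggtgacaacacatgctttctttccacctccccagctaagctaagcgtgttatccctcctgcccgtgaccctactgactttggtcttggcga
Ifitm1, chr7:140967826-140968075, plus strand: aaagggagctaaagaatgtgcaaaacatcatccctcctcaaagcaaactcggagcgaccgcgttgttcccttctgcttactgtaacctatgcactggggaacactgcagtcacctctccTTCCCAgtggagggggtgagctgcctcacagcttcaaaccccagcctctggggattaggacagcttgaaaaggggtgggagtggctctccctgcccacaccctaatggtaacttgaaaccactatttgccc
Lamb1, chr12:31265043-31265292, plus strand: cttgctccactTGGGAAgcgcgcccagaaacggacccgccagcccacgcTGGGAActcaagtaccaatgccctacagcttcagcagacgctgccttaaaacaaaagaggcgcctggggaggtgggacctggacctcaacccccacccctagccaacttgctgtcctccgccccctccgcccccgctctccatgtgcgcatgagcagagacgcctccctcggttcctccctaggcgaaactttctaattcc
Nid1, chr13:13437352-13437601, plus strand: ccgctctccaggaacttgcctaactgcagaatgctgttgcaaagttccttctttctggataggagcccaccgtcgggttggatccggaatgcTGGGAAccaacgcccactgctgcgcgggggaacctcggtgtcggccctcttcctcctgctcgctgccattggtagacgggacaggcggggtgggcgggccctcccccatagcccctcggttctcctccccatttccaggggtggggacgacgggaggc
The core lies 236 bases before the start of Vtn, 131 before that of Ifitm1, 201 and 239 before that of Lamb1 and 158 before that of Nid1; the Ndufa4 and Rgs5 windows hold none. Of the 62 genes above every class, 46 had a window in the RefSeq table, with 58 windows in all. TGGGAA on either strand was found in 18 of those windows (31.0%), against 21.6% of all 32851 windows of this length. The hypoxia-response core ACGTG, searched on both strands, was found in 8 (13.8%) against 16.6%. A match is a run of letters, not a site.

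Of 20 further pericyte genes outside the rule, 13 were higher than in smooth muscle cells (all genes: 1.8%), 20 than in endothelial cells (10.6%) and 16 than in fibroblasts (2.74%). None was lower. Their median log2 ratio was 1.72, 7.32 and 3.57, against 0.04, 0.26 and −0.24 for all genes. These genes were listed for their association with pericytes, with earlier results of these data known, and travel with the rule's genes. Their direction is therefore a description and not an independent check of the label.

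Pdgfrb, the receptor through which pericytes are recruited, stood at 718 and 1016 CPM, against 213 and 317 in smooth muscle cells (3.27-fold, edgeR adjusted p = 0.00058) and none in endothelial cells. Cd248, the surface protein endosialin, stood at 373 and 384 against 60.9 and 57.7 (6.38-fold, adjusted p = 8.6e-06), and the surface ADP-ribosyltransferase gene Art3 at 436 and 460 against 25.4 and 0 (fitted log2 change 4.44 ± 0.49, SE; 9.9e-08). Neither gene's pericyte values overlapped those of another class. Rgs5 and Notch3, by contrast, did not separate the 2 mural classes: Rgs5 stood at 7667 and 8716 CPM against 3753 and 5278 (adjusted p = 0.077), and the arterial Notch receptor Notch3 at 309 and 360 against 340 and 490 (0.81). Vtn stood at 4010 and 4628 CPM against 1341 and 1327 in smooth muscle cells (3.24-fold, adjusted p = 0.0025), but fibroblasts reached 4676 and 664 and were not distinguishable from pericytes (0.16). Of the 13 calls against smooth muscle cells, 8 did not pass without smooth muscle library 1, Pdgfrb, Vtn and Ndufa4l2 among them (adjusted p = 0.0504 to 0.350), while Cd248 and Art3 did; in DESeq2, 5 did not (0.131 to 0.539), Pdgfrb and Vtn included.

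The contractile apparatus divided the 2 mural classes the other way. Of 21 tested contractile and cytoskeletal genes, 13 were lower in pericytes than in smooth muscle cells (all genes: 2.12%) and 1 was higher (1.8%). Their median log2 ratio was −1.24. Beside endothelial cells 8 were higher and 2 lower (all genes: 10.6% and 10.1%), and 10 were higher than in fibroblasts (2.74%). Actg2, an intestinal and vascular smooth muscle actin, had no UMI in pericytes and 477 and 231 CPM in smooth muscle cells, at least 303-fold more (edgeR adjusted p = 2.2e-10). Tpm2, a tropomyosin, stood at 215 and 204 against 2570 and 1644 CPM (10.0-fold lower, 1.6e-10), and Pln, the inhibitor of the sarcoplasmic calcium pump, at 0 against 50.8 and 173 (at least 95.7-fold lower, 8.4e-06). Actg2 and Pln did not pass in DESeq2 (0.487 and 0.621) and Tpm2 did.

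Part of this set was also high in pericytes. The myosin light chain gene Myl9 stood at 1821 and 2036 CPM, below smooth muscle cells (4901 and 4009; 2.31-fold lower, edgeR adjusted p = 0.031) but far above fibroblasts (105 and 140; 15.7-fold) and endothelial cells (1.44 and 3.15). Caldesmon, encoded by Cald1, did not differ detectably between the mural classes, at 1307 and 1440 against 1260 and 1384 CPM (adjusted p = 0.83; log2 change 0.18 ± 0.27 SE). The non-muscle myosin gene Myh9 was the 1 member higher in pericytes, at 456 and 472 against 218 and 231 (2.07-fold, adjusted p = 0.023). That call did not pass in DESeq2 or without pericyte library 1 or either smooth muscle library (adjusted p = 0.0713 to 0.196). Myl9 lay near the 2-fold limit and did not pass without pericyte library 1 (0.603), without smooth muscle library 1 (0.629), in DESeq2 (0.384) or without barcodes that passed another threshold (0.0538). Of the 10 lower genes still tested without smooth muscle library 1, 6 did not pass (0.168 to 0.843) and Tpm2 did; without pericyte library 1, 5 of 13 did not, and without pericyte library 2, 3.

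Between the 2 mural classes stood 80 barcodes of library 1 and 10 of library 2 that met the pericyte sum but exceeded the smooth muscle limit, and these are described with no test because the rule's genes chose all 3 sets. Higd1b stepped from 4254 and 5232 CPM in pericytes to 2211 and 2923 in these barcodes and 102 and 115 in smooth muscle cells. Acta2 ran from 32.4 and 8 through 6318 and 3424 to 14912 and 11738. Genes outside the rule were intermediate too: Art3 went from 436 and 460 through 175 and 225 to 25.4 and 0 CPM, Cox4i2 from 731 and 872 through 443 and 467 to 112 and 173, and Tpm2 from 215 and 204 through 1525 and 1297 to 2570 and 1644. Rgs5 and Cald1 hardly differed between pericytes and the intermediate barcodes, at 7627 and 7454 and at 1242 and 1384 CPM in the latter. These barcodes held a median of 5519 and 4667.5 UMIs, above the pericytes' 3987 and 3576; whether they are cells of a transitional kind or barcodes with 2 cells was not tested.

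**Figure D4:**
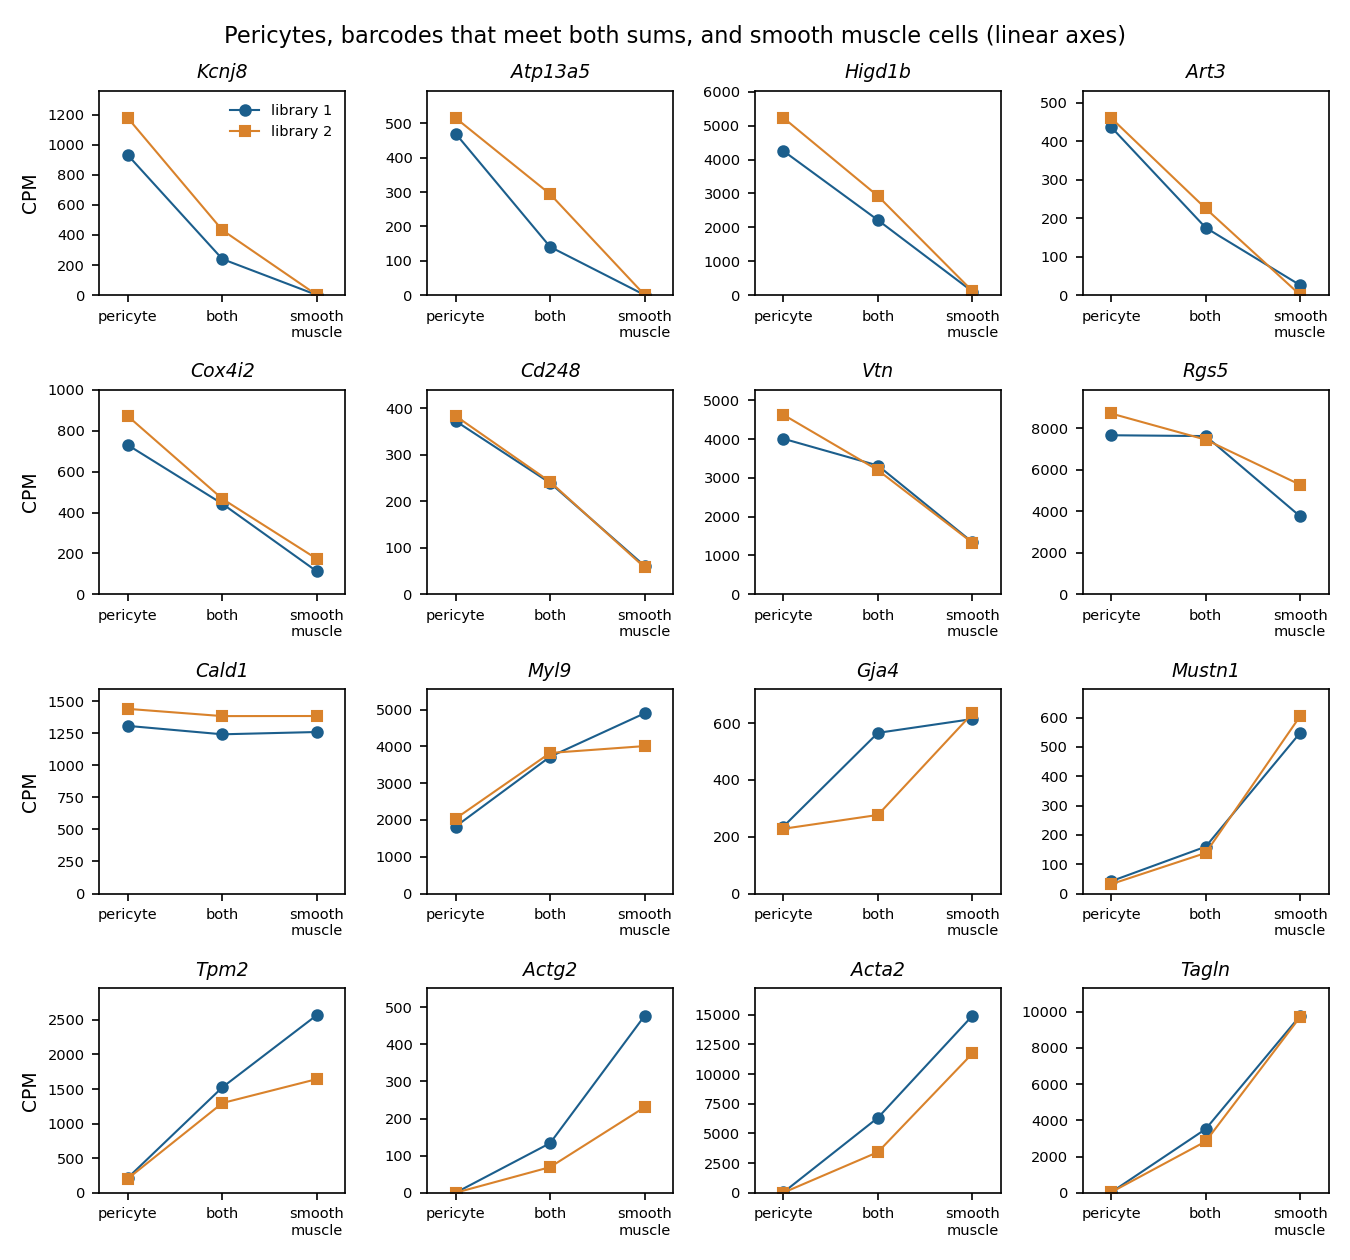
Levels of 16 genes in pericytes, in barcodes that met both the pericyte and the smooth muscle sum, and in smooth muscle cells, in CPM on linear axes, circles and blue lines library 1, squares and orange lines library 2. Pericyte genes such as Art3 and Cox4i2 step down and Tpm2, Acta2 and Tagln step up from left to right in both libraries, while Cald1 lies between 1242 and 1440 throughout.

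Vessel signals were next compared by role, ligands first. Of 28 ligand genes tested, 3 were higher and 6 lower in pericytes than in smooth muscle cells (all genes: 1.8% and 2.12%). The ligand counts were 9 and 12 against endothelial cells (all genes: 10.6% and 10.1%), and 2 and 5 against fibroblasts (2.74% and 1.89%). Median log2 ratios were −0.33, −0.09 and −0.94. Igf2, the fetal insulin-like growth factor, stood at 753 and 872 CPM in pericytes, a mean of 812 ± 84.5 (SD, n = 2). Smooth muscle cells held 5.08 and 28.8 CPM, which is 2 UMIs in all (88.5-fold lower by pooled counts, 95% interval 24.5 to 731; edgeR adjusted p = 3.9e-07), and endothelial cells none. Fibroblasts held 1625 and 280 CPM and were not distinguishable (adjusted p = 0.82). That result turned on the fibroblast library: without library 1 pericytes were higher (log2 change 2.40, adjusted p = 0.0064), and without library 2 lower (−1.06, 0.0289).

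Ptn, the heparin-binding growth factor pleiotrophin, was found in all 560 members. It stood at 6056 and 5888 CPM, 5.06-fold above smooth muscle cells (686 and 1673; edgeR adjusted p = 4.5e-05) and 32.4-fold above endothelial cells (186 and 183). Fibroblasts held 17373 and 5351 CPM (0.33) and astrocytes 8536 and 9462 (0.20), neither distinguishable from pericytes, although without fibroblast library 2 the remaining fibroblasts were higher (0.00021). Jag1, a Notch ligand of arterial walls, was 6.37-fold lower in pericytes (155 and 164 CPM) than in smooth muscle cells (848 and 1182; 4.5e-08) and not distinguishable from endothelial cells (170 and 170; 0.29). The endothelial ligands were near 0 in pericytes: Pdgfb, the recruiting signal, gave 7 UMIs, all in library 1 (3.02 CPM), against 249 and 233 CPM in endothelial cells (fitted log2 change −6.70 ± 0.44, SE; 5.1e-14), and Edn1, the vasoconstrictor endothelin 1, gave no UMI against 97.8 and 77.1 (at least 74.8-fold lower). Without pericyte library 1, 7 of the 12 ligands lower than in endothelial cells and 4 of the 9 higher did not pass (adjusted p = 0.0696 to 0.604), with Pdgfb, Edn1, Igf2 and Ptn still called.

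Among 28 receptor genes tested, 2 were higher than in smooth muscle cells and none lower (all genes: 1.8% and 2.12%). Receptors higher and lower than in endothelial cells numbered 9 and 13 (all genes: 10.6% and 10.1%), and 5 and 2 against fibroblasts (2.74% and 1.89%). The median log2 ratios were 0.22, −0.18 and −0.63. S1pr3, a receptor for the blood-borne lipid sphingosine 1-phosphate, stood at 242 and 340 CPM in pericytes, at 50.8 and 0 in smooth muscle cells (fitted log2 change 2.81 ± 0.55, SE; edgeR adjusted p = 0.00074), at 1.44 and 0 in endothelial cells and at 9.56 and 0 in fibroblasts. The 13 receptors lower than in endothelial cells included those of vascular endothelial growth factor (Kdr, Flt4), the angiopoietin receptors Tek and Tie1, and Eng, S1pr1, Notch4 and Nrp1, of which Flt4 and Tek did not pass in DESeq2 (adjusted p = 0.0687 to 0.745). For Pdgfb and Pdgfrb the ligand was called higher in endothelial cells and the receptor higher in pericytes. The Pdgfrb call against smooth muscle cells did not pass without smooth muscle library 1 (adjusted p = 0.102) or in DESeq2 (0.539), and S1pr3 against fibroblasts did not pass without fibroblast library 1 (0.0533).

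Receptors for vasoactive signals and the cyclic nucleotide pathway behind them held more genes high in pericytes. Of 22 tested, 5 were higher and 2 lower than in smooth muscle cells (all genes: 1.8% and 2.12%). In this list 14 were higher and 2 lower than in endothelial cells (all genes: 10.6% and 10.1%), and 10 and 0 against fibroblasts (2.74% and 1.89%). Median log2 ratios were 0.40, 3.28 and 1.73. Ednra, the endothelin A receptor, stood at 299 and 352 CPM, against 60.9 and 28.8 in smooth muscle cells (7.25-fold, edgeR adjusted p = 3.3e-05) and none in endothelial cells. Tbxa2r, the thromboxane receptor, stood at 342 and 352 against 50.8 and 57.7 in smooth muscle cells (6.40-fold, 2.6e-05) and 8.63 and 7.87 in endothelial cells. Neither receptor's pericyte values overlapped those of another class. Gucy1a1, a subunit of the nitric oxide receptor guanylate cyclase, stood at 440 and 464 against 142 and 346 CPM in smooth muscle cells (1.85-fold, adjusted p = 0.0025), and its partner Gucy1b1 at 283 and 296 against 152 and 144 (0.10). Of the phosphodiesterases that end cyclic nucleotide signals, Pde5a was higher in pericytes (309 and 228 against 102 and 86.5; 2.86-fold, 0.0063) and Pde3a lower (69.5 and 80.0 against 350 and 433; 5.24-fold, 2.5e-06). The calls of Gucy1a1, Pde5a and Rgs4 (0.133 to 0.405) and of both lower genes, Pde3a and Rgs16 (0.118 and 0.144), did not pass without smooth muscle library 1; without pericyte library 1, Gucy1a1, Pde5a, Tbxa2r and Rgs16 did not (0.0715 to 0.560), nor did Rgs4 in DESeq2 (0.131). Ednra passed in each of these fits.

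Ion channels and pumps were less divided. Of 26 tested, 3 were higher and 4 lower than in smooth muscle cells (all genes: 1.8% and 2.12%). Channels and pumps higher and lower than in endothelial cells numbered 13 and 3 (all genes: 10.6% and 10.1%), and 5 and 0 against fibroblasts (2.74% and 1.89%). Median log2 ratios were 0.09, 2.31 and 0.54. Itpr2, an inositol trisphosphate receptor that releases calcium from internal stores, stood at 91.1 and 92.0 CPM in pericytes against 10.2 and 0 in smooth muscle cells (10.6-fold by pooled counts, 95% interval 2.89 to 87.7; edgeR adjusted p = 0.0063). Kcnk3, an acid-sensitive background potassium channel, was lower in pericytes, with 1.30 and 0 CPM, 3 UMIs in all, against 71.1 and 57.7 in smooth muscle cells (59.1-fold, interval 16.9 to 317; 1.9e-05). Itpr2 and all 4 lower genes did not pass without smooth muscle library 1 (adjusted p = 0.295 to 0.928), and 3 of the 4, Kcnk3 among them, did not without pericyte library 1 (0.0584 to 0.316).

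Transcription factors and Notch targets of mural cells were read next. Of 23 tested, 3 were higher and 2 lower than in smooth muscle cells (all genes: 1.8% and 2.12%). Factors higher and lower than in endothelial cells numbered 13 and 5 (all genes: 10.6% and 10.1%), and 7 and 1 against fibroblasts (2.74% and 1.89%). Median log2 ratios were 0.22, 2.09 and 0.98. Heyl, a Notch target in mural cells, stood at 162 and 176 CPM, not distinguishable from smooth muscle cells (259 and 144; edgeR adjusted p = 0.62), with none in endothelial cells. Foxf2, a forkhead factor of brain pericytes, stood at 88.5 and 108 CPM against 5.08 and 0 in smooth muscle cells (20.9-fold by pooled counts, 95% interval 3.72 to 830; 0.0018), but endothelial cells reached 118 and 128 (0.12). Zic1, a zinc finger factor of neural crest and brain mural cells, was 3.41-fold higher than in smooth muscle cells (338 and 396 against 71.1 and 144; 0.00017). Mef2c, a muscle and vascular factor, was 2.63-fold lower (330 and 368 against 711 and 1125; 0.0012). Without smooth muscle library 1, Foxf2, Zic1, Mef2c and Id3 did not pass (0.111 to 0.537), and without pericyte library 2 Mef2c and Id3 did not (0.0757 and 0.197).

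Matrix genes moved in both directions. Of 29 tested, 6 were higher and 5 lower than in smooth muscle cells (all genes: 1.8% and 2.12%). The matrix counts were 12 and 5 against endothelial cells (all genes: 10.6% and 10.1%), and 5 and 8 against fibroblasts (2.74% and 1.89%). Median log2 ratios were 0.45, 1.39 and −0.25. Nid1, the laminin and collagen IV linker nidogen 1, stood at 615 and 620 CPM, a mean of 618 ± 3.37 (SD, n = 2). It was 4.26-fold above smooth muscle cells (203 and 86.5; edgeR adjusted p = 3.8e-05), 2.70-fold above endothelial cells (236 and 222; 4.7e-05) and 2.26-fold above fibroblasts (268 and 280; 0.0016). Laminin chains differed by chain: Lamb1 was 2.58-fold and Lama4 3.04-fold above smooth muscle cells, while Lama5 gave 2 UMIs in all pericytes against 86.3 and 260 CPM in smooth muscle cells (144-fold lower by pooled counts, interval 36.1 to 1252; 2.5e-07) and 15.8 and 42.5 in endothelial cells. The fibrillar collagen genes Col1a2 and Col3a1 stood at 219 and 224 and at 298 and 296 CPM, 9.31-fold and 8.15-fold below fibroblasts (8.9e-11 and 1.4e-08) and above endothelial cells, which held 1 UMI of Col1a2 and none of Col3a1. Without smooth muscle library 1, Lama4, Lamb1, Nid2 and Vtn did not pass (0.0513 to 0.469). Agrn did not pass without pericyte library 1 or smooth muscle library 2 (0.0941 and 0.0534), and Nid1 passed in each of these fits. Without fibroblast library 1, Nid1, Lamb1 and Fn1 (0.0638 to 0.272) and 5 of the 8 lower genes did not pass, with Col1a2 and Col3a1 still called.

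Of 22 integrin and adhesion genes tested, 3 were higher and 2 lower than in smooth muscle cells (all genes: 1.8% and 2.12%). Those higher and lower than in endothelial cells numbered 9 and 7 (all genes: 10.6% and 10.1%), and 9 and 2 against fibroblasts (2.74% and 1.89%). Median log2 ratios were −0.19, 0.77 and 1.31. The 2 gap junction genes went in opposite directions. Gjc1, encoding connexin 45, stood at 593 and 728 CPM, 2.62-fold above smooth muscle cells (188 and 317; edgeR adjusted p = 0.00071). Gja4, encoding connexin 37, stood at 236 and 228, 2.69-fold below them (615 and 634; 0.00031). Itga1, a collagen and laminin receptor, stood at 939 and 1004 CPM, not distinguishable from smooth muscle cells (670 and 692; 0.17) and 6.86-fold above endothelial cells (150 and 134). Neither connexin call passed without smooth muscle library 1 (adjusted p = 0.0507 for Gjc1 and 0.585 for Gja4), and Gja4 did not pass without pericyte library 1 (0.0797).

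Transporters differed most from the endothelium, whose barrier function rests on them. Of 29 solute carrier and ABC transporter genes tested, 18 were lower and 7 higher in pericytes than in endothelial cells (all genes: 10.1% and 10.6%). Their median log2 ratio was −3.12. Transporters higher and lower than in smooth muscle cells numbered 4 and none (all genes: 1.8% and 2.12%), and 2 and 2 against fibroblasts (2.74% and 1.89%). Slco1a4, an organic anion transporter of the barrier, gave 1.73 and 4 CPM against 221 and 209 in endothelial cells (75.2-fold lower, edgeR adjusted p = 2.7e-13), and the drug efflux pump gene Abcb1a none against 119 and 162. Slc12a2 stood above every other class. It encodes the sodium, potassium and chloride cotransporter and stood at 333 and 352 CPM, 6.31-fold above smooth muscle cells (50.8 and 57.7; 4.3e-06) and 8.88-fold above endothelial cells (33.1 and 44.1; 7.1e-11). Slc6a20a, a proline transporter, stood at 86.8 and 132 CPM with none in smooth muscle cells (at least 8.44-fold, 0.001), and Slc22a8, an organic anion transporter, at 70.8 and 84.0, lower than the 301 and 320 of endothelial cells (4.01-fold, 4.7e-09). Without smooth muscle library 1, Slc6a20a, Slc22a8 and Slc30a10 did not pass (0.0919 to 0.280) and Slc12a2 did; Abcb1a against endothelial cells did not pass in DESeq2 (0.281).

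Immediate early genes are transcription factors and regulators induced within minutes of a stimulus, cell dissociation included. The list used here also held the heat shock genes Hspa1a and Hspa1b. Both are counted below among the genes lower than in smooth muscle cells, and Hspa1b among those lower than in endothelial cells. The part of dissociation here was not tested. Of 21 genes tested on this list, 14 were lower than in smooth muscle cells (all genes: 2.12%) and 12 lower than in endothelial cells (10.1%). None was called against fibroblasts, and none was higher in any of the 3 comparisons. Median log2 ratios were −2.45, −0.76 and −0.68. Fos stood at 95.4 and 68.0 CPM against 1067 and 577 in smooth muscle cells (10.1-fold lower, edgeR adjusted p = 1.6e-07), with a UMI in 74 of 497 and 9 of 63 members. It did not differ detectably from endothelial cells (63.3 and 120; 0.48), where Klf2, a flow-induced factor, stood out instead (24.2 and 60.0 against 400 and 512; 10.8-fold lower, 7.3e-12). Of the 14, 9 did not pass without smooth muscle library 1 (0.0573 to 0.839), Fos being among the 5 that did; without pericyte library 1, 6 of the 12 against endothelial cells did not (0.103 to 0.529). Among 21 complement, antigen presentation and cytokine genes tested, 2, 7 and 2 were higher than in smooth muscle cells, endothelial cells and fibroblasts (all genes: 1.8%, 10.6% and 2.74%). In the same order 3, 5 and 2 were lower (2.12%, 10.1% and 1.89%), with median log2 ratios of −0.20, 1.07 and −0.41. Ifitm1, an interferon-induced membrane protein gene, stood at 780 and 896 CPM against 96.5 and 231 in smooth muscle cells (5.12-fold, 2.2e-06) but did not pass in DESeq2 (0.226). Bst2, the antiviral protein tetherin, stood at 54.0 and 84.0 against 1412 and 634 (14.8-fold lower, 3.1e-10).

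The genes with the largest folds outside the lists were also read. Against smooth muscle cells, the collagen-repeat protein gene Cthrc1 stood at 475 and 380 CPM against 5.08 and 0 (108-fold by pooled counts, 95% interval 19.3 to 4266; edgeR adjusted p = 3.3e-09), while fibroblasts were 2.32-fold higher still (1147 and 839; 0.0067), a call that did not pass without either pericyte library or without fibroblast library 1 (0.107 to 0.811). The matrix protease gene Mmp9 stood at 82.9 and 208 CPM and was higher than in all 7 classes. It passed against neither smooth muscle cells nor fibroblasts when either library of those classes was left out or in DESeq2 (0.0612 to 0.458). On the other side, Cav1, the coat protein of caveolae, gave 3 UMIs in all pericytes (1.30 and 0 CPM) against 310 and 490 in smooth muscle cells (288-fold lower by pooled counts, interval 95 to 1427; 8.2e-13) and 204 and 238 in endothelial cells (188-fold, interval 63.8 to 919; 9.4e-15). Elastin, encoded by Eln, stood at 3.02 and 0 CPM against 1366 and 115 in smooth muscle cells (fitted log2 change −8.49 ± 0.68, SE; 1.1e-10); that call did not pass without smooth muscle library 1 (0.131). Cd93, an endothelial glycoprotein gene, gave 0.864 and 0 CPM in pericytes and 86.3 and 260 in smooth muscle cells, and the summed level of 10 endothelial markers in that class was 127 and 173 CPM (7 and 8 of the 10 at 0); its part in the Cd93, Cav1 and Lama5 values was not tested. Against fibroblasts, Igfbp7, a secreted vascular protein gene, stood at 3237 and 3300 CPM against 19.1 and 0 (216-fold by pooled counts, interval 59.8 to 1783; 7.5e-12), but smooth muscle and endothelial cells were not distinguishable from pericytes (0.59 and 0.57). Reln, the secreted guidance protein reelin, gave 1 UMI in all pericytes against 354 and 2483 CPM in fibroblasts (2081-fold lower by pooled counts, interval 366 to 82946; 1.3e-10). In the fibroblast class, 7 excitatory neuron markers summed to 28.7 and 350 CPM (5 of 7 at 0 in each library) and 8 neuroblast markers to 124 and 490 CPM (2 and 3 at 0), higher like Reln in library 2; their part in the Reln value was not tested.

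A part of the pericytes carried genes of dividing cells. After thinning each barcode to 1500 UMIs, at least 3 of 28 G2 and M phase genes were found in 97 of 497 members of library 1 (19.5%, exact 95% interval 16.1 to 23.3) and in 4 of 63 of library 2 (6.35%, 1.76 to 15.5); without thinning the shares were 24.5% and 7.94%. In library 1, 334 members held none of these genes and members above the threshold held up to 19. Endothelial barcodes reached 6.25% and 6.78%, neuroblasts 36.0% and 22.3%, and microglia 17.3% and 25.3%. Smooth muscle cells, the other mural class, stood at 12.8% (5 of 39) and 11.1% (1 of 9), above pericytes in library 2. Oligodendrocyte precursors stood at 12.5% and 19.4%, astrocytes at 7.82% and 20.5%, and fibroblasts at 2 of 19 and 2 of 5 barcodes. Of the 97, 19 also passed another class's threshold, as did 1 of the 4; among the 439 members of library 1 that passed none the share was 17.8%. Of 22 DNA replication genes, at least 3 were found in 70 of 497 members of library 1 (14.1%, interval 11.1 to 17.5) and 8 of 63 of library 2 (12.7%, 5.65 to 23.5), so the libraries' shares lay closer for this list. Markers of other classes in the pericytes did not move one way with the library: neuroblast markers summed to 266 and 140 CPM, oligodendrocyte precursor markers to 228 and 4, and microglial markers to 27.2 and 572. Their part in the shares was not tested. Phase genes alone do not show cycling.

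**Figure D5:**
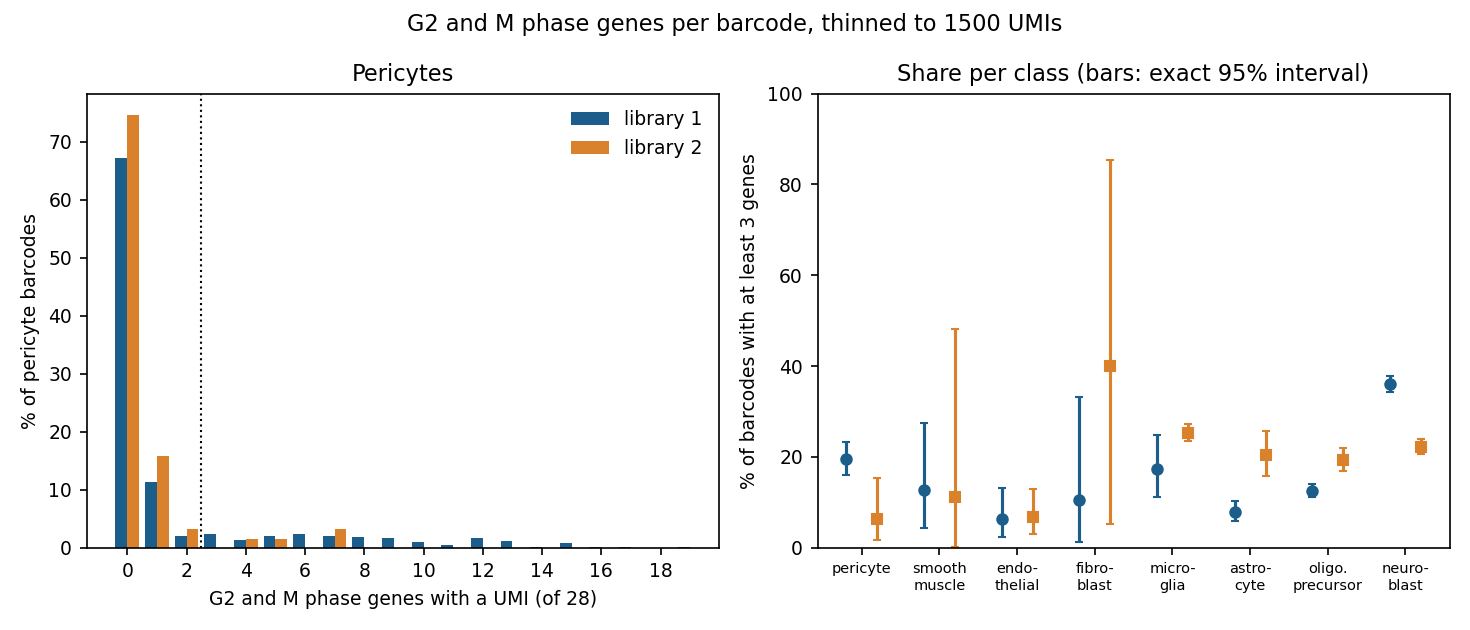
Left, number of 28 G2 and M phase genes with a UMI per pericyte barcode after thinning to 1500 UMIs, as a percentage of each library's pericytes, with a dotted line below the threshold of 3. Right, share of barcodes of each class at or above it with exact 95% intervals, 19.5% and 6.35% in pericytes of library 1 (circles, blue) and library 2 (squares, orange).

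Of the 28 genes, 12 were higher in the summed pericytes than in endothelial cells (all genes: 10.6%), and none was called against smooth muscle cells or fibroblasts. The median log2 ratio was 1.23 against endothelial cells, 0.75 against smooth muscle cells and 0.15 against fibroblasts. Mki67, the proliferation antigen, stood at 76.9 and 32.0 CPM against 12.9 and 17.3 in endothelial cells (3.60-fold, edgeR adjusted p = 0.0023), and Top2a at 174 and 64.0 against 38.8 and 45.7 (2.81-fold, 0.0097). All 12 calls rest on library 1: without its pericytes none passed (adjusted p = 0.466 or above), and in DESeq2 8 of the 12 did not. Within library 1, members with at least 3 of these genes held fewer UMIs of pericyte genes at equal depth than members with none. The mean was 8.23 ± 5.41 (SD over 97 barcodes) against 14.2 ± 6.85 (334 barcodes) for Rgs5, 4.35 against 8.14 for Vtn and 0.567 against 1.33 for Cox4i2. For Ptn the means were 8.35 and 10.9. These barcodes share 1 library, so the values are a description. Of the 97, 19 also passed another class's threshold and were kept in these means. The phase genes themselves also take up UMIs of a fixed total. The part of either in the lower means was not tested.

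Across members the leading genes were broadly present. After thinning, Rgs5 was found in 98.6% of library 1 and 98.4% of library 2, Ndufa4l2 in 86.5% and 87.3%, Cox4i2 in 61.6% and 57.1% and Igf2 in 59.0% and 65.1%. The same thinned shares in neuroblasts, which should lack Rgs5 and Ndufa4l2, were 0.659% and 0.134% for Rgs5 and 0.243% and 0 of 2245 barcodes for Ndufa4l2. The median number of UMIs per member before thinning was 36 and 32 for Rgs5 (quartiles 24 to 46 and 24 to 43.5), 17 and 17 for Vtn, 26 and 21 for Ptn and 7 and 6 for Ndufa4l2. Between genes and across the 439 and 58 members that passed no other threshold, Pearson's r was low, at 0.288 and 0.340 for Rgs5 with Vtn and 0.369 and 0.416 for Fos with Junb; the barcodes share a library and the counts are sparse, so these are descriptions.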

How the data were processed

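Counts of UMIs per gene and barcode (32285 features, 32486 barcodes) were deposited by the authors as 10x matrices of whole numbers without normalization, per the file headers; the submitters' processing notes name Cell Ranger 6.1.2 and build mm10. Barcodes with at least 500 genes, at least 1500 UMIs and at most 10% mitochondrial UMIs were kept (11486 and 9255). The 8 classes were drawn by sums of marker UMIs. A barcode outside the pericytes had to reach its class minimum (microglia 5, astrocyte 3, oligodendrocyte precursor 4, neuroblast 6, and the 3 given in the text). It also had at most 2 pericyte UMIs and passed no other class's threshold. Pericytes that passed another class's threshold were kept. Class sums per library (pericytes 2316150 and 249993 UMIs) were fitted together with edgeR 4.0.16 in R 4.3.3 (TMM, filterByExpr, quasi-likelihood F test, 7 residual degrees of freedom), with library as a block because classes of 1 library share its animals and its run. Each Benjamini-Hochberg adjustment ran over all 12508 genes of a comparison, and the fit was tested on simulated data. Shares of barcodes with a gene were taken after thinning to 1500 UMIs, with exact Clopper-Pearson 95% intervals. Alternatives were DESeq2 1.42.0, RLE size factors, no low-count filter, no block, other class limits and doublets left out (Scrublet in scanpy 1.11.5). Each pericyte, endothelial, smooth muscle and fibroblast sum was also left out in turn. Microglia, astrocyte, oligodendrocyte precursor and neuroblast sums were not left out. Genes named in the text are list members, gate genes as description, and the 10 called genes with the largest fold each way at 50 CPM or more; genes above or below every class, and those that differ between the libraries, were chosen after their values were seen. Members and lists were chosen with earlier results of these data known. Promoter windows came from RefSeq (GRCm38.p6) and gene coordinates from GENCODE.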

Additional observations from a re-analysis of the deposited data

How the results depend on the processing

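The counts of genes depended most on which library was left out. Without 1 pericyte or comparison sum the range was 686 to 1738 genes higher and 593 to 1119 lower against endothelial cells, 59 to 377 higher and 45 to 344 lower against smooth muscle cells, 134 to 459 higher and 70 to 264 lower against fibroblasts, 24 to 84 above every class and 0 to 1 below every class; leaving out sums of the comparison classes was chosen after seeing the data, as was the count below every class. With DESeq2, 132 genes were higher than in smooth muscle cells, 169 higher than in fibroblasts and 40 above every class. Without pericytes that passed another class's threshold, 2 genes were below every class. The library block, which pairs classes of 1 library, moved few calls: with no replicate block 1274 genes were higher and 1215 lower against endothelial cells, 202 and 234 against smooth muscle cells, 319 and 215 against fibroblasts, and 57 above every class. Of all deposited barcodes, pericytes made up 3.83% in library 1 and 0.323% in library 2. Without thinning, the share with at least 3 G2 and M phase genes in library 1 was 24.5%. Among single genes, the fitted log2 difference from fibroblasts ran from −1.06 to 2.40 for Igf2 when 1 library was left out, the high end without fibroblast library 1. Of 395 calls of genes on the 15 lists against these 3 classes, 62 were not called with DESeq2, 111 without pericyte library 1 and 15 without pericyte library 2. Of the calls against smooth muscle cells, 59 of the 89 still tested were not called without smooth muscle library 1; of those against fibroblasts, 41 of 90 were not called without fibroblast library 1. Fits without 1 sum assume that the lone sum varies like the other classes. Depth limits these comparisons: 1 UMI was 28.8 CPM in smooth muscle library 2 and 35 CPM in fibroblast library 2.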
